A study of Mus musculus with 65 samples.

Results

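The genes described here are 147 members of the Zfp zinc finger series, chosen because each was above 0 in at least 33 of 65 single neurons. The table holds 288 genes named Zfp plus a number that occur once, so the 147 are 51.0% of them, and 2 lines that share a name were left out. Among all 11875 genes named once, 8493 (71.5%) reached the same limit. Detection over all cells chose the members, so their wide detection is a description and not a result. At the limit, 10 members were above 0 in exactly 33 cells, with mean log2(CPM + 1) from 1.93 in Zfp362 to 2.46 in Zfp316. Just outside it, 10 Zfp genes were above 0 in 32 cells, with means from 1.49 in Zfp384 to 2.47 in Zfp385c.

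The C2H2 zinc finger is a short fold in which paired cysteines and histidines hold a zinc ion, and arrays of such fingers read DNA, RNA or other proteins. Zfp is a naming series for mouse genes of this kind and not a class by function, so it joins proteins of unlike function. Many of them carry a KRAB box, which recruits the corepressor Trim28 and, through it, the histone methyltransferase Setdb1, and these repressors bind transposable elements and imprinted regions. Others bind the spindle, splice sites or ribosome precursors and are not repressors in the usual sense.

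The cells were male mouse neurons of mixed strain, from Hsd11b2-Cre animals with the Ai9 reporter, in which cells that have expressed the Cre driver make red tdTomato. They were taken by hand after papain digestion, the tissue label being the nucleus of the solitary tract and the protocol text naming Arc-ME. All cells shared that genotype, and the diet was standard chow for 33 and low sodium for 32. A cell marked by this reporter expresses, or once expressed, the driver, and the labels do not say how many animals gave the cells.

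Since no animal is named, each diet counts as 1 sample, so the diets were described with the mean and SD over cells and no test was made. Hsd11b2 was above 0 in 65 of 65 cells, and at least 3 of 11 measured neuron markers exceeded 10 CPM in every cell. At least 3 markers of a non-neuronal type exceeded 10 CPM in 37 cells, 19 of them chow. Some of these markers were widely detected, with Aldoc above 0 in 65 cells, Cnp in 58 and Mbp in 54, and others less so, such as Gfap in 17. The count therefore does not show that a cell holds material of another cell type. None of the 10 microglia markers was a line of the table. In 9 low-sodium cells the CPM of all lines summed to 1393471 or more, against at most 1147326 in the other 56 cells, and these 9 are given apart as the high-sum cells. Recovered reads per cell ran from about 50072 to 5317020. No pair of cells held identical values, and the highest rank correlation between 2 cells was 0.75.

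The promoter sequence before the start site is shown for 4 members on which the comparisons turn, the highest and lowest by diet (Zfp180 and Zfp617) and a pair with high values in the high-sum cells (Zfp266 and Zfp106). They were chosen after their values were seen. Each run is the 250 bases before the start site, 5′ to 3′ on the strand of the gene, from RefSeq with build GRCm38.p6. The stretches are chr7:24081647-24081896 on the plus strand for Zfp180 and chr9:20521420-20521669 on the minus strand for Zfp266. Those of Zfp106 and Zfp617 are chr2:120563860-120564109 on the minus strand and chr8:71922575-71922824 on the plus strand. For each gene the first listed start site was used. The stretch of Zfp617 lies inside the gene as the GENCODE M21 annotation places it (chr8:71908635-71934629), so the 2 annotations differ on where this gene starts. Capitals mark a match to a searched motif on either strand.
Zfp180: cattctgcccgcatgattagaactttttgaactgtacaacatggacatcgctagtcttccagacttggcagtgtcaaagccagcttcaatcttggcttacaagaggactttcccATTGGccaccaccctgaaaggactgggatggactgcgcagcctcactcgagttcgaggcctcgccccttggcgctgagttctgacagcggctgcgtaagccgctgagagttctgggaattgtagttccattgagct
Zfp266: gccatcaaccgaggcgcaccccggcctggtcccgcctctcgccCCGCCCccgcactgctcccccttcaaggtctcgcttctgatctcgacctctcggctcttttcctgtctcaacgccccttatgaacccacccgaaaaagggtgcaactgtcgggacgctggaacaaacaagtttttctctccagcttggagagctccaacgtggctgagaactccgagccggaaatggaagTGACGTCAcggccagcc
Zfp106: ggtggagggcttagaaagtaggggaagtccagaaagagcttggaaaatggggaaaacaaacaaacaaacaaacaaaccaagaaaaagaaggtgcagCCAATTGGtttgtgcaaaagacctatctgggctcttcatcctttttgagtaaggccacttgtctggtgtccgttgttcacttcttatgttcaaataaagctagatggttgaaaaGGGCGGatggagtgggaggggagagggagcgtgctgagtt
Zfp617: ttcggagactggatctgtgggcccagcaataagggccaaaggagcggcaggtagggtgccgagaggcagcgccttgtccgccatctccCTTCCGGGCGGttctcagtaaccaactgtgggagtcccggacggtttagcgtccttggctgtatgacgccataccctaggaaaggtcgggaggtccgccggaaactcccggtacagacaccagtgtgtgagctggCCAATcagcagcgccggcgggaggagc

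The motifs were searched on both strands. The Sp1 box was written as GGGCGG and the CCAAT box as its name says. The ETS motif was written as CCGGAAG and the cyclic AMP response element, CRE, as TGACGTCA. An E-box (CACGTG), the TATA box (TATAAA) and the YY1 motif (AAGATGGC) had no match in these 4 stretches. The capitals are CCAAT in Zfp180, an Sp1 box and a CRE in Zfp266, an Sp1 box and overlapping CCAAT matches of both strands in Zfp106, and an Sp1 box with an overlapping ETS match and a CCAAT in Zfp617. Of the 147 members, 123 had a promoter in the table outside chromosome 18. The Sp1 box was in 51.2% of the members' promoters, 62.2% of those of other widely detected genes and 32.9% of all 27025. ETS stood at 18.7%, 14.9% and 7.05% in the same order, and CCAAT at 39.8%, 35.7% and 34.5%. The CRE that Zfp266 holds was in 3.25% of the members' promoters, 3.36% of those of other widely detected genes and 1.62% of all. Median CG pairs in the 250 bases were 13 in members, 17 in other widely detected genes and 6 in all genes. A match describes these letters only.

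All 147 members were found in the GENCODE M21 annotation, and 145 of them have a coding sequence there. The exceptions are Zfp783, a transcribed pseudogene, and Zfp862-ps. The coding sequences held a median of 9 C2H2 fingers by a pattern of cysteine and histidine spacing, and at most 36, in Zfp142. No finger matched in Zfp330, Zfp365, Zfp703 and Zfp935. A KRAB-like stretch was found in 60 members and not found in 85. The KRAB-like members had more fingers, with a median of 12 against 7. Chromosome 7 held 26 members and chromosome 6 held 15, with 13 each on chromosomes 8, 9 and 17. Of the 52 members on chromosomes 7, 9 and 17, 30 were KRAB-like, beside 60 of all 145 with a coding sequence. On chromosome 6 the KRAB-like members were Zfp9, Zfp248, Zfp746 and Zfp777. Those on chromosome 8 were Zfp1, Zfp90, Zfp612, Zfp617, Zfp868 and Zfp869. The members form 38 neighbouring pairs within 100 kb of each other. Over the 56 cells outside the high-sum set, the median rank correlation of these neighbours was 0.08, as over all 10731 pairs of members (0.08).

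Levels are given first as mean log2(CPM + 1) over the 65 cells, where CPM is a scaled read count. The members were lower than all widely detected genes, with a median of 3.13 against 4.73, and were above 0 in a median of 44 cells against 56. Only Zfp706 was above 0 in all 65 cells, 11 members reached 60 cells or more, 86 lay at 40 to 59 and 50 at 33 to 39. KRAB-like members had a median level of 2.71 and the others one of 3.54, at similar median exon lengths (4406 and 4587 bases). With the first pattern tried, which found KRAB in 34 members, the medians were 2.78 and 3.25.

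**Figure D1:**
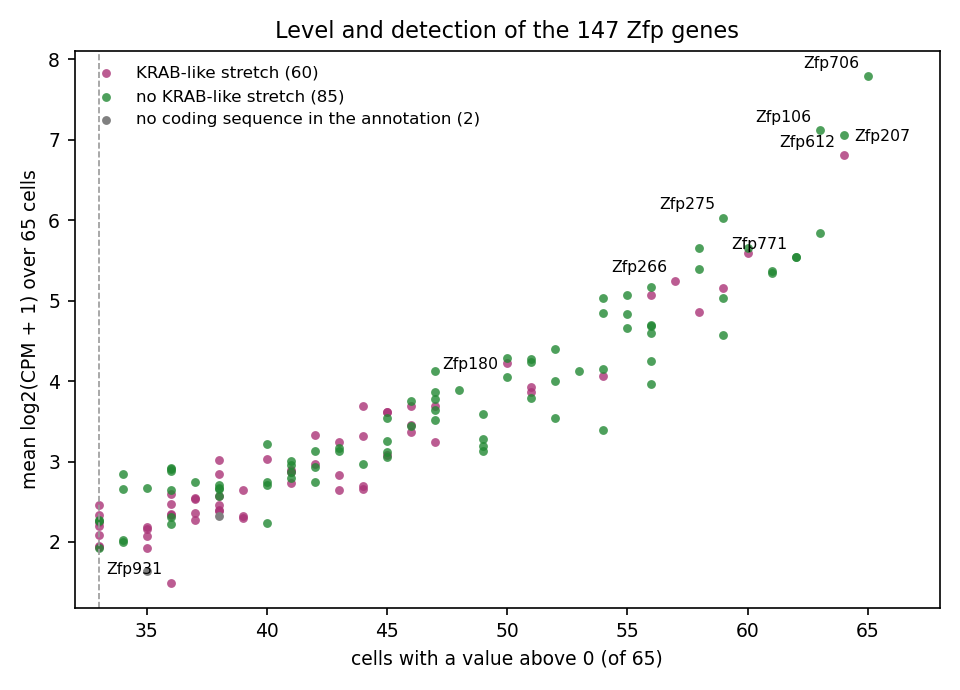
Mean log2(CPM + 1) over 65 cells (vertical) against the number of cells above 0 (horizontal) for the 147 Zfp genes, 1 point a gene, coloured by the KRAB-like pattern, with the limit of 33 cells dashed. Zfp706 stands at the top right with 65 cells, and most KRAB-like genes lie at the lower left.

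Zfp706, a small single-finger protein known in embryonic stem cells for the exit from self-renewal, had the highest level (7.79 ± 1.17, SD over 65 cells). In chow cells it ran from 5.34 through a median of 7.96 to 8.97. The other low-sodium cells covered 4.79, 7.76 and 9.45 at the same points. The high-sum cells were wider, at 2.20, 8.05 and 10.27, and the 3 sets overlapped. It also had the smallest SD of the members, followed by Zfp612, Zfp207, Zfp664 and Zfp931.

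Next by level came Zfp106, an RNA-binding protein needed to keep motor neurons and muscle, at 7.12 ± 1.90, and Zfp207, known as BuGZ for its part at the kinetochore, at 7.06 ± 1.68. Zfp612 followed with 6.81 ± 1.49 and was the highest KRAB-like member. Its medians were 7.21 in chow, 7.16 in the other low-sodium and 7.20 in the high-sum cells on the deposited scale. The difference of its means between the last 2 sets was 0.12 as deposited and -0.72 rescaled to equal sums. The remaining members of the highest 12 were Zfp275, Zfp664, Zfp260, Zfp512, Zfp445, Zfp292, Zfp771 and Zfp444, from 6.03 down to 5.40. The SD of each of these 12 genes exceeded 1, so neighbours in the order differ by less than their spread.

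Per kilobase of exon the order changed. Zfp771 led with a mean of 58.5 CPM per kb, then Zfp706 with 57.6, Zfp637 with 53.4 and Zfp207 with 44.3. Zfp771 and Zfp637 have short exon sets of 1484 and 1431 bases. Zfp292, a large protein linked in humans to intellectual disability, ranked 60 per kb at 8.91 CPM per kb. The lowest was Zfp738, with 1.20 CPM per kb.

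At the other end of the spread, Zfp35, Zfp180, Zfp574, Zfp868 and Zfp687 had SDs of 3.02, 3.00, 3.00, 2.97 and 2.92 over the 65 cells. These genes were listed at 0 in some cells and above 8 in others. Zfp574, for example, had a highest value of 7.21 in chow, 8.73 in the other low-sodium and 12.47 in the high-sum cells, and was at 0 in 15 of 65 cells.

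A cell had 103 ± 23.7 members above 0 on chow (SD, 33 cells) and 101 ± 24.7 on low sodium (32 cells). With every cell thinned to 50000 reads the numbers were 74.9 ± 15.7 and 71.7 ± 18.8. Both differences are far inside the spread. Across the 65 cells the number of members above 0 followed the number of all genes above 0 (rho = 0.96) and less so the reads (rho = 0.44). These points share library depth, and the values are descriptions.

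By diet, the median difference over the 147 members, low sodium minus chow in mean log2(CPM + 1), was 0.07, beside -0.11 over all 8493 widely detected genes. Low-sodium cells were higher by 1 or more for 9 members (6.12%), where 4.2% of all genes were. Chow cells were higher by 1 or more for 8 members (5.44%), where 6.51% of all genes were. The other 130 differences were smaller than 1, and no difference was larger than the SD over cells in both diets. Without the high-sum cells the counts were 9 (6.12%) and 8 (5.44%) again, where 2.99% and 5.93% of all genes were, and the median was -0.04 beside -0.08. Rescaled to equal sums, 6 members (4.08%) were higher and 10 (6.80%) lower, where 2.51% and 10.3% of all genes were. Without the 37 cells that hold non-neuronal markers, 14 chow and 14 low-sodium cells were left, and 27 members (18.4%) were higher and 25 (17.0%) lower by 1 or more, where 8.87% and 14.9% of all genes were. With a pseudocount of 10 CPM, 1 member (0.680%) was higher and 0 lower, where 1.00% and 0.353% of all genes were. In these settings the share of higher members stood above that of all genes, except with 10 CPM, where it rested on 1 member. The members also had a lower median level than all widely detected genes (3.13 against 4.73). By the exon length classes defined below, with all cells, 5.71% of long members were higher, where 6.98% of other long genes were. In the middle class these shares were 7.14% and 4.26%, and in the short class 4.76% and 1.38%. Without the high-sum cells they were 4.29% and 3.68% in the long class. The gap between the shares was not tested.

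Zfp180 had the largest difference upward, 1.95. Its chow cells ran from 0 through a median of 3.35 to 7.71, and all low-sodium cells had a mean of 5.04 ± 3.20 against 3.09 ± 2.49. It was above 0 in 72.7% of chow cells (exact 95% interval 54.5 to 86.7%) and 81.3% of low-sodium cells (63.6 to 92.8%), intervals that cover counting error over cells only. The high-sum cells carried much of this, with a median of 8.92 against 4.68 in the other low-sodium cells, and the difference without them was 0.98.

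Zfp783, the transcribed pseudogene, followed with 1.61, and with 1.32 without the high-sum cells. Its chow median was 0, with 16 of 33 cells above 0 and a highest value of 6.34, and its medians were 2.44 in the other low-sodium and 4.89 in the high-sum cells. Its neighbour Zfp956 differed by 1.05. The 2 genes share 290 bases of exon on the same strand of chromosome 6, so reads there cannot be given to one of them.

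The other members higher on low sodium by 1 or more were Zfp846 (1.48), Zfp810 (1.37), Zfp941 (1.28), Zfp280d (1.28), Zfp692 (1.09) and Zfp266 (1.06). Those past 1 both with and without the high-sum cells were Zfp783, Zfp810, Zfp941 and Zfp280d. Zfp941 had chow values of 0, 5.44 and 7.14 at the lowest, median and highest cell, and 0, 5.51 and 8.33 in the other low-sodium cells. The difference of its means, 1.08 there, therefore came with near-equal medians and with more chow cells at 0 (7 of 33 against 2 of 23). Without those cells the difference was 0.69 for Zfp846 and 0.49 for Zfp956. For Zfp266 the sign turned to -0.31 without the high-sum cells.

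Downward, Zfp617 had the largest difference, -1.66, and -1.13 without the high-sum cells. Its chow cells ran from 0 through 4.25 to 7.01, the other low-sodium cells from 0 through 1.53 to 7.15, and 1 of the 9 high-sum cells was above 0. It was above 0 in 66.7% of chow cells (exact interval 48.2 to 82.0%) and 50.0% of low-sodium cells (31.9 to 68.1%). With 50000 reads a cell it was above 0 in 17 chow and 5 low-sodium cells. Of its 50-base stretches, 40.8% also occur in other transcripts, most of them in Gm18180, so its level is uncertain.

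Zfp651 (-1.42), Zfp938 (-1.36), Zfp367 (-1.36), Zfp949 (-1.27), Zfp451 (-1.07), Zfp386 (-1.06) and Zfp57 (-1.03) were the other members lower on low sodium by 1 or more. Without the high-sum cells that of Zfp367 was -0.79. Zfp451 is a SUMO ligase, and Zfp57 is the KRAB protein that keeps DNA methylation at imprinted regions. Zfp57 was at 0 in 12 of 33 chow cells, and its mean was 2.58 ± 2.29 there and 1.55 ± 2.13 on low sodium. Zfp445, its partner at imprinted regions, was near the same on both diets (5.49 ± 2.51 and 5.68 ± 2.62). Lower by 1 or more also without the high-sum cells were 6 members, Zfp617, Zfp651, Zfp938, Zfp949, Zfp451 and Zfp386.

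**Figure D2:**
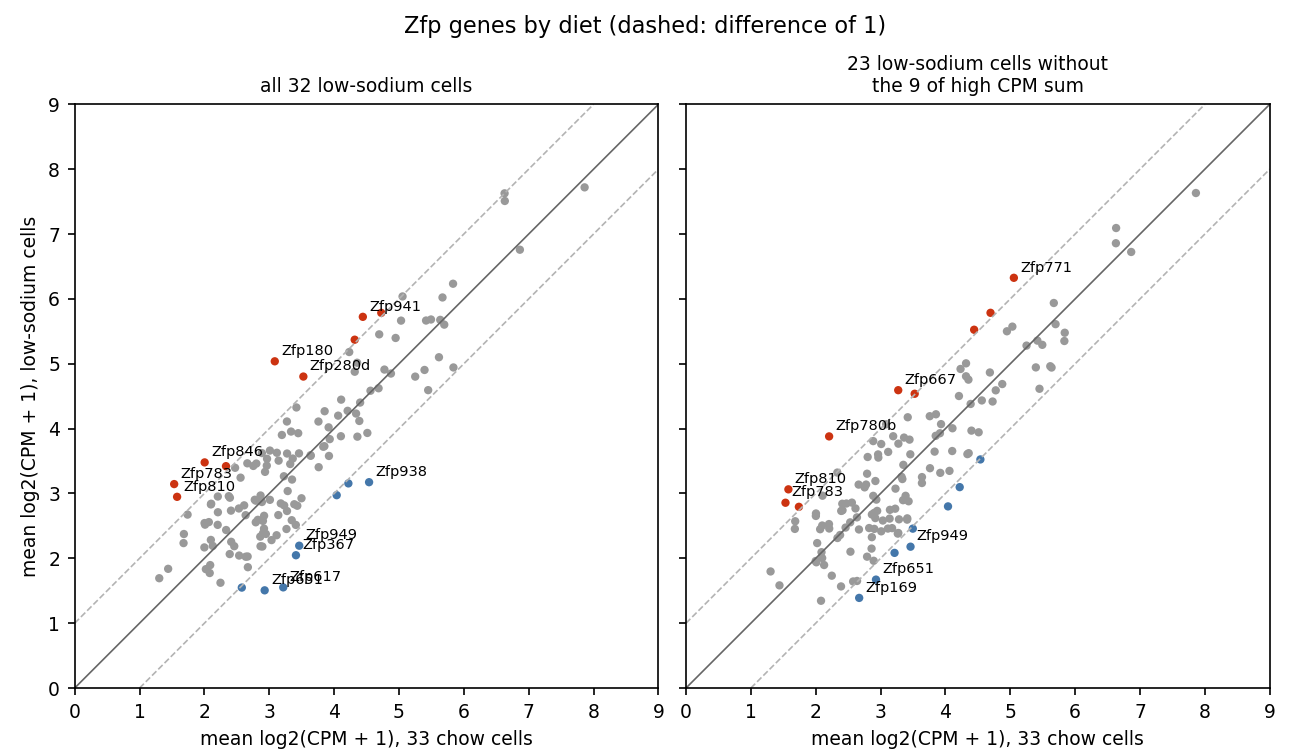
Mean log2(CPM + 1) of each of the 147 Zfp genes in low-sodium cells (vertical) against chow cells (horizontal), with all 32 low-sodium cells on the left and without the 9 high-sum cells on the right. Red and blue points are the 9 higher and 8 lower by 1 or more in each panel, and the other 130 lie between the dashed lines.

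Among 26 members with a well-known role, 0 were higher and 2 (Zfp451 and Zfp57, 7.69%) lower on low sodium by 1 or more, where 4.2% and 6.51% of all genes were, with a median of 0.16. The KRAB-like members and the others had medians of 0.08 and 0.04, and by the first pattern 0.18 and 0.02. Without the high-sum cells these were -0.12 and -0.03, and by the first pattern -0.004 and -0.07. The median of the members with a well-known role was then 5.6e-05. Of 30 measured genes of the KRAB corepressor and heterochromatin machinery, Smarcad1 was higher by 1.03 and Mbd3, a subunit of the NuRD deacetylase complex, lower by 1.76, with a median of -0.01. Trim28 had means of 6.32 ± 1.69 on chow and 5.98 ± 2.03 on low sodium, and Setdb1 3.09 ± 2.52 and 3.43 ± 3.31, both differences being inside the spread. Of 21 measured genes of the CCR4-NOT deadenylase and mRNA decay list, Dcp1b was higher by 1.499 and Pan3 lower by 1.15, with a median of 0.19. Without the high-sum cells the medians of the machinery list and the decay list were 0.04 and -0.08.

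The high-sum cells differed from the other 23 low-sodium cells by far more than the diets did, in the members and in all genes. Of the members, 41 (27.9%) were higher by 1 or more, where 21.4% of all genes were, and 19 (12.9%) were lower, where 24.3% were. The median difference was 0.20 in the members and -0.16 in all genes. With the CPM of every cell rescaled to the same sum, 21 members were higher (12% of all genes) and 35 lower (43.5% of all genes), with medians of -0.32 and -0.79. The members lay above the median of all genes of any exon length on both scales, while the direction of their own median depended on the scale. Medians by exon length are given below. No member had all 9 high-sum cells above all 23 others, as 77 of the 8493 genes did.

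Zfp266, a KRAB zinc finger gene, was highest by this difference (4.86, or 4.04 rescaled). Its 9 high-sum cells ran from 5.47 through 9.77 to 11.40, the other low-sodium cells from 0 through 4.97 to 7.33, and chow cells from 0 through 5.53 to 7.79. Of the 9, 2 lay inside the range of the other low-sodium cells. Zfp106 showed the same layout at a higher level, with 7.71, 10.01 and 11.56 in the high-sum cells against 0, 7.42 and 9.08 in the others (difference 2.74). Zfp180 (3.45), Zfp275 (3.14), Zfp532 (3.03) and Zfp846 (2.80) completed the highest 6.

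The lowest were Zfp780b (-3.30), Zfp367 (-2.02), Zfp597 (-1.91), Zfp444 (-1.90), Zfp617 (-1.89) and Zfp944 (-1.73). Zfp780b was above 0 in 1 of 9 high-sum cells and in 19 of the 23 others, and with 50000 reads a cell in 1 and 14. Of its 50-base stretches, 41.2% also occur elsewhere, most in Zfp974. On the deposited scale, 7 of the 147 differences were larger than the SD in each of the 2 sets. They were those of Zfp106, Zfp180, Zfp207, Zfp266, Zfp275, Zfp532 and Zfp780b. The matching share over all widely detected genes was not computed, so the count has no base to be read against. For Zfp207 that was a difference of 1.48, or 0.63 rescaled.

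**Figure D3:**
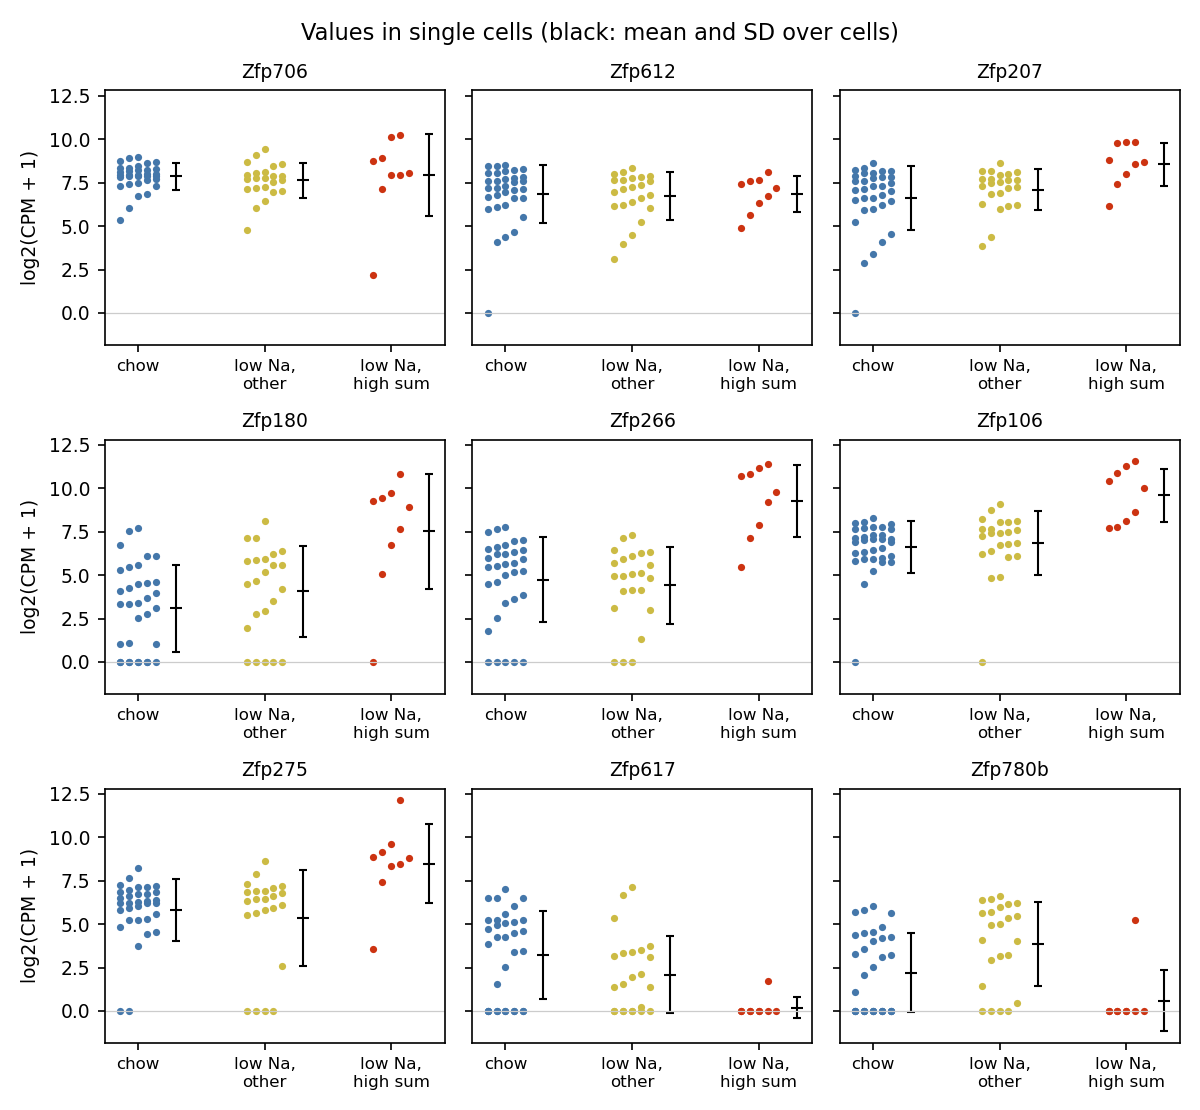
Values of 9 Zfp genes in single cells, log2(CPM + 1) on the vertical axis, for chow (33), other low-sodium (23) and high-sum low-sodium cells (9), 1 point a cell, with mean and SD over cells in black and points at 0 partly hidden by each other. Zfp612 has medians of 7.16 to 7.21 in the 3 sets on this deposited scale, Zfp266 and Zfp106 lie higher in the high-sum cells, and Zfp780b is above 0 in 1 of those 9.

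Among the 26 members with a well-known role, 10 were higher in the high-sum cells by 1 or more and 1, the ubiquitin ligase Zfp91 (-1.70), was lower, where 21.4% and 24.3% of all genes were. Rescaled to equal sums the balance turned, with 2 higher and 7 lower, where 12% and 43.5% of all genes were. On the deposited scale, besides Zfp106 and Zfp207, those higher included Zfp804a (2.06), the mouse form of a human psychosis risk gene, Zfp335 (1.54), in which human mutations cause microcephaly, and Zfp445 (1.39). Of the machinery list, 9 of 30 genes (30.0%) were higher and 8 (26.7%) lower by 1 or more on that scale, and 4 and 13 rescaled, with medians of -0.06 and -0.87. Atf7ip, the partner that stabilises Setdb1, was higher by 4.02 and Setdb1 by 2.93, while Trim28 differed by -0.22. The heterochromatin protein genes did not move together, with Cbx1 and Cbx3 at -2.23 and -2.22 and Cbx5 at 1.22.

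The length of a gene's exons moved with this comparison. Over 8120 genes with a length, the difference had a rank correlation of 0.37 with exon bases, and over the members 0.24, points that share the same cells. The members were longer, with a median of 4467 exon bases against 3528. With exon lengths divided into 3 classes of equal size at 2606 and 4604 bases, the long class had 32.9% of 70 members and 33.1% of 2637 other genes higher by 1 or more. In the middle class these shares were 21.4% of 56 and 22.3% of 2650, and in the short class 28.6% of 21 (6 genes) and 9.01% of 2686. Lower by 1 or more were 10.0%, 14.3% and 19.0% of the members in the long, middle and short class, against 13.6%, 20.7% and 38.6% of other genes. So in the longer 2 classes the shares of higher members hardly differed from those of other genes of like length. The median differences of members and other genes were 0.55 and 0.40 in the long class and -0.08 and -0.69 in the short class. In the middle class the members lay lower, at -0.27 and -0.09, though rescaled to equal sums these were -0.59 and -0.74. Whether exon length has a part in the differences of single members was not tested.

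**Figure D4:**
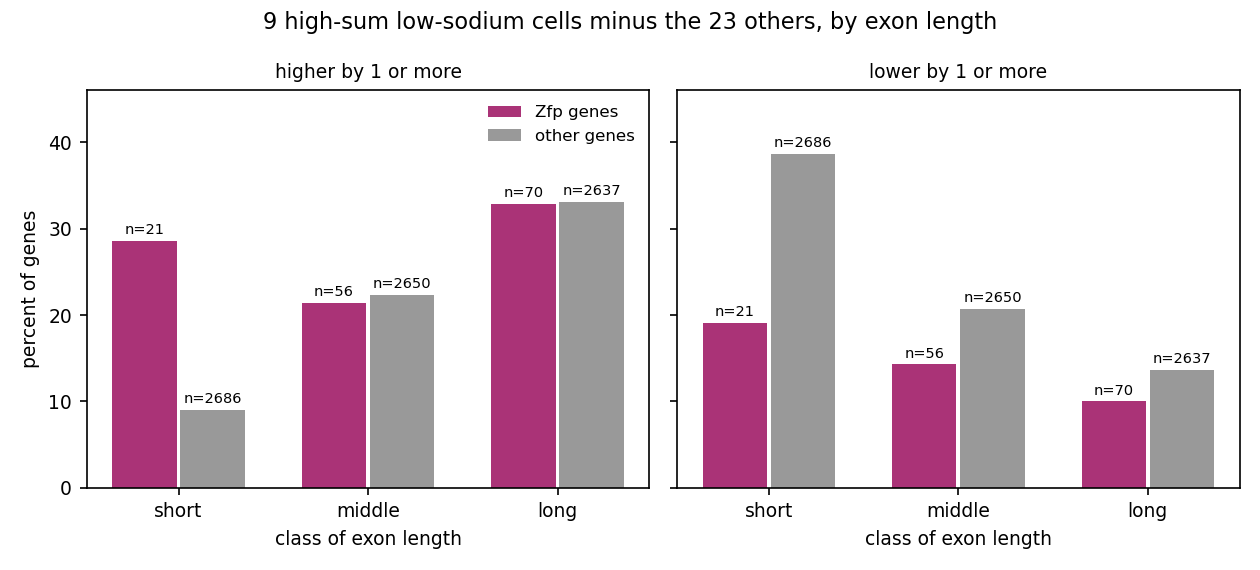
Percent of genes higher (left) or lower (right) by 1 or more on the log2(CPM + 1) scale in the 9 high-sum cells than in the other 23 low-sodium cells, by class of exon length, for Zfp genes and other widely detected genes, with the number of genes above each bar. In the middle and long classes the left bars of both kinds are near equal, and in the short class the Zfp bar rests on 6 of 21 genes.

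The share of a cell's summed CPM that fell on the 147 members does not depend on the total by which the cell was scaled. It was 0.584 ± 0.111% in chow cells (0.386 to 0.765%), 0.668 ± 0.154% in the other low-sodium cells (0.339 to 0.954%) and 0.941 ± 0.215% in the high-sum cells (0.668 to 1.33%). The sets overlapped, the low-sodium cells spanning the chow range. Zfp106, Zfp266, Zfp275 and Zfp574 were chosen by their mean CPM in the high-sum cells, as the 4 highest members there. Without these 4 genes the shares were 0.549, 0.628 and 0.703% in the same order. Since the genes were selected on their values in the high-sum cells, a smaller gap without them is built in. Whether the gap rests on few genes was not tested.

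KRAB-like members held 0.197 ± 0.064% of the CPM in chow, 0.212 ± 0.078% in the other low-sodium and 0.275 ± 0.178% in the high-sum cells. The members with no KRAB-like stretch held 0.386 ± 0.061%, 0.450 ± 0.096% and 0.661 ± 0.116%. The step to the high-sum cells was thus larger against its spread in the second group. Of the members of highest mean CPM in the high-sum cells, Zfp106, Zfp275 and Zfp574 belong to this group and Zfp266 is KRAB-like. Over all members without these genes, the share was 0.628 ± 0.155% in the other low-sodium and 0.703 ± 0.208% in the high-sum cells. These genes were selected on their mean CPM in the high-sum cells, so a smaller step without them is built in. Whether these genes carry the step of the second group was not tested. Shares of the groups by the first KRAB pattern were not computed. Over the same 3 sets, other genes of the long class held 25.3, 26.9 and 39.2% of the CPM, and those of the short class 35.1, 34.0 and 18.5%. Their part in the members' share was not tested.

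**Figure D5:**
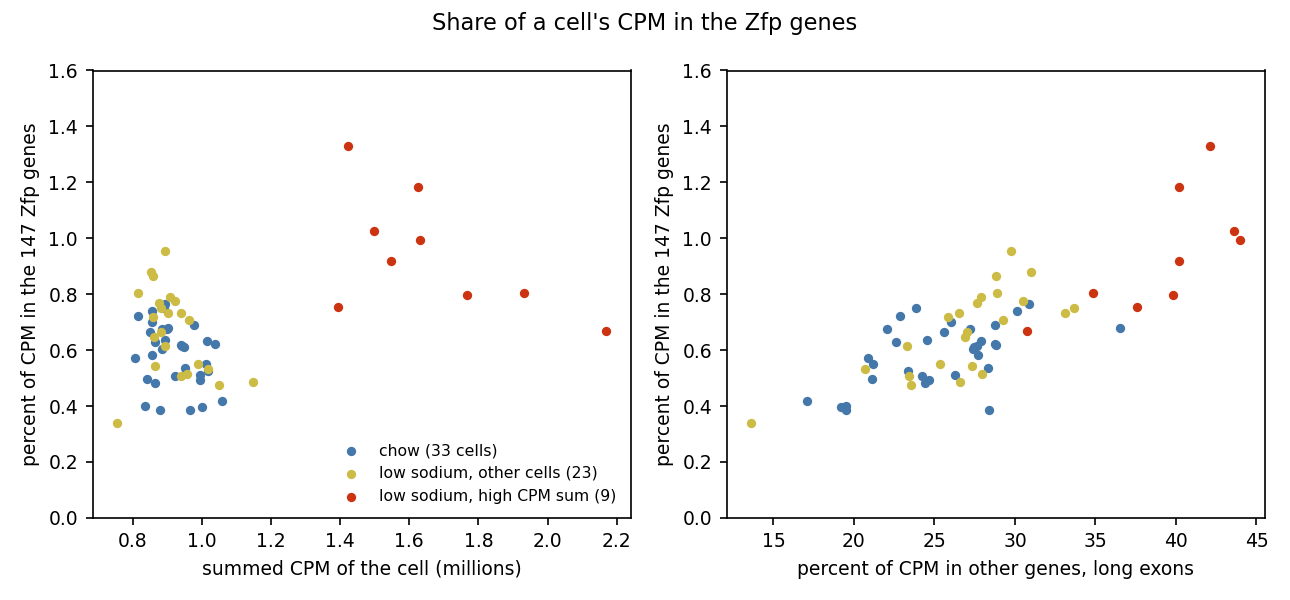
Percent of a cell's CPM in the 147 Zfp genes (vertical) against the cell's summed CPM, in units of 1000000, (left) and against the percent in other genes of the long class (right), 1 point a cell. The 9 high-sum cells lie at 0.668 to 1.33%, and the chow cells at 0.386 to 0.765%.

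For the 3 most widely detected members, the genes of most similar pattern over the 56 cells outside the high-sum set were found by rank correlation among all widely detected genes. For Zfp706 they were Gnpda2 (rho = 0.59), Ncbp2 (0.53) and Smu1 (0.52). Zfp207 was most like Ndst3 (0.56), Fam120a (0.52) and Etohi1 (0.52), and Zfp612 most like Sfmbt1 (0.54), Mcm7 (0.53) and Tbrg3 (0.52). These values are the highest among all these genes, over cells that share depth, and are descriptions.

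Other finger families gave few widely detected genes. By diet the 14 Zbtb genes had a median of -0.31, the 7 Zscan and Zkscan genes -0.10 and the 10 Zc3h genes 0.07, beside 0.07 for the members. Without the high-sum cells these medians were -0.20, 0.17 and 0.18 in the same order, beside -0.04 for the members. The differences between families were not tested. The 141 Zfp genes under the detection limit had a median of -0.15, with 5 (3.55%) higher and 6 (4.26%) lower by 1 or more, beside 4.2% and 6.51% of the widely detected genes.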

How the data were processed

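The authors deposited 1 table of log2 values, log2(CPM + 1), with a line a gene and a column a cell. Per the submitters' processing notes reads were handled with featureCounts 1.4.6, SAMtools 0.1.19, Picard 2.5.0, HISAT2 2.0.5 and bcl2fastq, and the builds named are GRCm38 and mm10. Per the labels' protocols, libraries of polyA RNA came from Smart-Seq2 and Nextera XT. Settings, strand use and scaling total: not given in the sources used here. CPM sums exceeded 1000000 in 17 cells, and how this arose was not tested.

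Of 12015 lines, 140 with repeated names or serial numbers were left out of all but sums. CPM were computed by undoing the log2. The smallest step of a cell was taken as 1 read, which made the CPM up to 20 steps whole within 0.1 steps in 64 cells, and 97.0% of them in low-sodium neuron 10. Larger read numbers are approximate, since the deposited values lie on a coarse grid. The scripts (Python 3.11.15, pandas 2.3.3, numpy 2.4.6, scipy 1.17.1) were tested on simulated data.

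Differences are of means over cells, with cells at 0 included and a pseudocount of 1 CPM, and a difference of 1 or more is the size counted. It is not the fold of mean CPM. No p-value was computed. Named were the 12 highest levels, the 12 highest and 12 lowest diet differences, of which those past 1 are mostly printed, the 6 highest and lowest high-sum differences, the 5 largest and smallest SDs, members with a known role and genes of the machinery lists. Zfp738, Zfp142, the members with no finger match, the 4 members removed from the share and the other genes named outside this rule were chosen after values were seen. Members and lists were chosen with earlier results of these data known, and the limit of 1200000 on summed CPM was too.

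Exon lengths and proteins came from GENCODE M21 (translated coding sequences, since no protein table was used). A finger was C, 2 to 4 residues, C, 12 residues, H, 3 to 5 residues, H. A first KRAB pattern in the longest isoform matched 34 members. After that count was seen, the pattern was widened and searched in every isoform, which gave 60 and kept the 34. Divergent boxes can be missed. Of the members, 42 overlap exons of other genes, and 12 share at least 10% of their 50-base stretches with other genes.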

Additional observations from a re-analysis of the deposited data

How the results depend on the processing

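The diet values were small and depended on the setting. The members' median of 0.07 became -0.0116 with a pseudocount of 0.1 CPM, -0.0703 rescaled to 1000000, -0.0510 thinned to 50000 reads, -0.0049 as the median over cells, -0.0426 over all Zfp genes with no detection limit and -0.0411 without the high-sum cells, and leaving out single cells in turn gave -0.0101 (without low-sodium neuron 32, the only cell that turned the sign) to 0.145. All genes had medians of -0.17, -0.29, -0.33 and -0.15 in the first 4 of these. The 9 members higher and 8 lower became 1 and 0 with a pseudocount of 10 CPM, 20 and 21 with 0.1 CPM, 23 and 33 for medians over cells, 5 and 1 with a limit of 49 cells, 14 and 14 with no limit, and 27 and 25 without cells that hold non-neuronal markers. With 0.1 CPM these were 13.6% and 14.3% of members, where 8.12% and 14.5% of all genes were. For medians over cells they were 15.6% and 22.4%, where 6.90% and 15.1% of all genes were. A limit of 49 cells or no limit changes how many Zfp genes are counted. Shares over all genes were not computed for these limits, so their counts cannot be set against the others. The lower count was 5 (3.40%) with size factors and 13 (8.84%) thinned, where 4.92% and 16.7% of all genes were. Single cells left out gave 7 to 14 higher (14 without chow neuron 5, 21 or 63) and as few as 5 lower (without low-sodium neuron 7, 13, 35 or 45). Of 33 single members, 5 turned sign without the high-sum cells, Zfp266 (to -0.31) and, with differences under 1, Zfp260, Zfp275, Zfp292 and Zfp445. Rescaled, Zfp260 and Zfp445 turned, and thinned, Zfp445.

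The high-sum median of 0.20 was -0.32 rescaled, -0.30 thinned, 0.41 with size factors, 0.33 with a limit of 49 cells, 0.0895 with no limit and 0.45 without marker cells. Single cells left out gave 0.0452 (without low-sodium neuron 49) to 0.454 (without neuron 45). The median of all genes was lower than the members' in each of the first 3 and the last setting, at -0.79, -0.96, 0.10 and -0.09. The counts of 41 higher and 19 lower became 27 and 3 with 10 CPM, 21 and 35 rescaled, 15 and 5 with 49 cells, and 65 and 36 with no limit. With 10 CPM these were 18.4% and 2.04% of members, where 16.1% and 12.5% of all genes were. Rescaled they were 14.3% and 23.8%, where 12.0% and 43.5% of all genes were. For 49 cells and for no limit, the number of Zfp genes counted differs and shares over all genes were not computed. The counts were 51 and 31 (34.7% and 21.1%) with 0.1 CPM, where 25.2% and 30.3% of all genes were. Thinned they were 29 and 47 (19.7% and 32.0%), which turns the balance as rescaling does, where 13.4% and 48.7% of all genes were. For medians over cells they were 52 and 40 (35.4% and 27.2%), where 23.5% and 33.9% of all genes were. Without marker cells they were 55 and 31 (37.4% and 21.1%), where 26.4% and 28.6% of all genes were. Members above 0 per cell were 74.9 and 71.7 (chow, low sodium) thinned and 43.2 and 42.6 with 49 cells, and the shares were 0.337 and 0.457% with 49 cells. The high-sum counts, leaving out single cells, the length classes and the KRAB patterns were added after seeing the data. The causes were not tested.

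No paired analysis was possible because the results come from no test and the neuron numbers only name cells. Reads per cell limit detection, so a member at 0 was not detected at that depth, which does not show absence.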
